A study of Mus musculus with 10 samples.

Results

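The NRF2 antioxidant set described here is 10 named mouse genes: the transcription factor gene Nfe2l2, which encodes NRF2, its inhibitor gene Keap1, and the target genes Nqo1, Ephx1, Srxn1, Txnrd1, Hmox1, Gsr, Gpx2 and G6pdx. Each gene was read from the transcript clusters that the supplied gene table lists under its symbol alone, the brightest of several, by its mean over the 10 arrays, standing for the gene. This gave values for 9 of the 10 genes, out of 22180 named genes in all. G6pdx had no such cluster and was not analysed here.

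NRF2 is a transcription factor that switches on genes for antioxidant defence and detoxification. In unstressed cells KEAP1 holds NRF2 in the cytosol and hands it to a CUL3 ubiquitin ligase for degradation. Oxidants and electrophiles modify KEAP1, and NRF2 then enters the nucleus, pairs with small MAF proteins and binds antioxidant response elements near its targets. In liver the pathway is known for raising glutathione synthesis, NADPH-dependent reduction and the handling of reactive drug metabolites.

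RNA from whole livers of fasted male mice was measured on Affymetrix whole-transcript arrays, 1 array per sample, as log2 levels that the authors made with RMA. The livers had received an adeno-associated virus (AAV) with the TBG promoter, which drives expression in hepatocytes, about 2 weeks earlier. Its cargo was GFP as a control or Fst288, which encodes a form of follistatin, an antagonist of activins that cells secrete. Wild-type mice fed a high-fat diet made up the HFD GFP group (3 arrays) and the HFD FST288 group (3 arrays), and LTKO mice the LTKO GFP group (2 arrays) and the LTKO FST288 group (2 arrays). LTKO is left unexplained in the labels. It usually stands for a liver knockout of Irs1 and Irs2, the insulin receptor substrates, together with Foxo1, a transcription factor that insulin restrains. The diet of the LTKO mice and the ages are not given in the labels, so genotype and diet cannot be told apart in any comparison of LTKO with HFD livers. Nor do the labels tie each array to its own animal, so a p-value covers array-to-array spread, which may be technical.

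The arrays bore out their labels where this could be checked. Irs1, Irs2 and Foxo1 were lower in the LTKO GFP group than in the HFD GFP group by 3.40-fold, 2.31-fold and 3.21-fold, and Fst was 2.11-fold higher with FST288 in HFD livers and 2.72-fold higher in LTKO livers (limma, adjusted p at most 0.0307). All 6 hepatocyte markers were above the array median in every group. Within groups, arrays correlated at 0.989 to 0.993 over all genes. HFD FST288 replicates 2 and 3 stood apart: their 8 measured pancreatic acinar markers had summed linear levels of 2890 and 1320, against 54.3 to 65.5 on the other 8 arrays. LTKO FST288 replicate 2 had a summed level of 1680 for 10 Kupffer cell and macrophage markers, against 464 to 769 on the others. Several calls and counts below are also given without these arrays. In bulk tissue, fewer cells of a type and less RNA per cell cannot be told apart.

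NRF2 acts through a short DNA element, so the promoters of the members were searched for its core. The motif was TGACNNNGC, on either strand, in RefSeq windows of assembly GRCm38.p6 that run from 250 bases before to 50 bases after a transcription start. Windows were listed for 8 of the 10 members, all but Hmox1 and Gsr, and those of 4 held the motif: Nfe2l2, Srxn1, Txnrd1 and G6pdx. Over all symbols with a window, 14.0% held it. The stretches of the 3 measured members are shown because these genes were higher in LTKO livers (below). They are written 5′ to 3′ along the gene, with the matching bases in capitals. The Nfe2l2 stretch is at chr2:75704869-75704913 on the minus strand and its match begins at base -240 from the start. For Txnrd1 it is at chr10:82859088-82859148 on the plus strand, with the match at base -92 in 1 of 3 listed windows. The Srxn1 stretch is at chr2:152105542-152105570 on the plus strand, and its match begins at base 29 of the transcript.
Nfe2l2: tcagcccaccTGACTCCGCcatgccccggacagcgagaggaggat
Txnrd1: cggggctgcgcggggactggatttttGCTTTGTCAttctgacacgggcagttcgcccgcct
Srxn1: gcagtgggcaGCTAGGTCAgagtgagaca
In Txnrd1 and Srxn1 the match lies on the opposite strand, so the core reads from right to left in complement. No match was found in the windows of Nqo1, Ephx1, Keap1 and Gpx2, which says only that these letters are not in these windows. Of 57 other pathway genes with a window (listed by role further on), 16 held the motif, or 28.1%. Among these 16, Gclm, Pir, Sod1 and Ugdh were called higher in LTKO livers averaged over vectors, and Me1, Pgd and Gsta3 were called lower. The rest of the 16, Abcc2, Abcc4 and the small MAF genes Mafg, Maff and Mafk among them, were not called or had no value. No binding was measured in these samples, so a match is a description of the letters.

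The LTKO livers held more RNA of nearly every measured member than the HFD livers. As averages over the vectors, Ephx1 was 2.59-fold and Nqo1 2.53-fold higher, Hmox1 2.09-fold and Srxn1 1.95-fold, and Gsr, Keap1, Nfe2l2 and Txnrd1 between 1.26-fold and 1.57-fold. With GFP, 8 of the 9 measured members were called higher and 0 lower, at an adjusted p under 0.05 over all genes, where 13.1% of all genes were called and 6.69% were called higher. With FST288, 6 of 9 were called higher and 0 lower, against 10.3% of all genes called and 5.05% called higher. Averaged over the vectors the count was 8 of 9, against 17.3% and 8.88%. The median difference of the 9 was 0.64 with GFP, 0.66 with FST288 and 0.65 averaged, on the log2 scale, where the medians of all genes were 0.01, 0.00 and 0.01. In 7 of the 9 members all 4 LTKO arrays lay above all 6 HFD arrays, as did 6.82% of all genes. The exceptions were Nfe2l2 and Gpx2. The members were chosen with earlier results of these data known, so the counts beside the shares of all genes describe these genes and do not test them as a set.

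**Figure D1:**
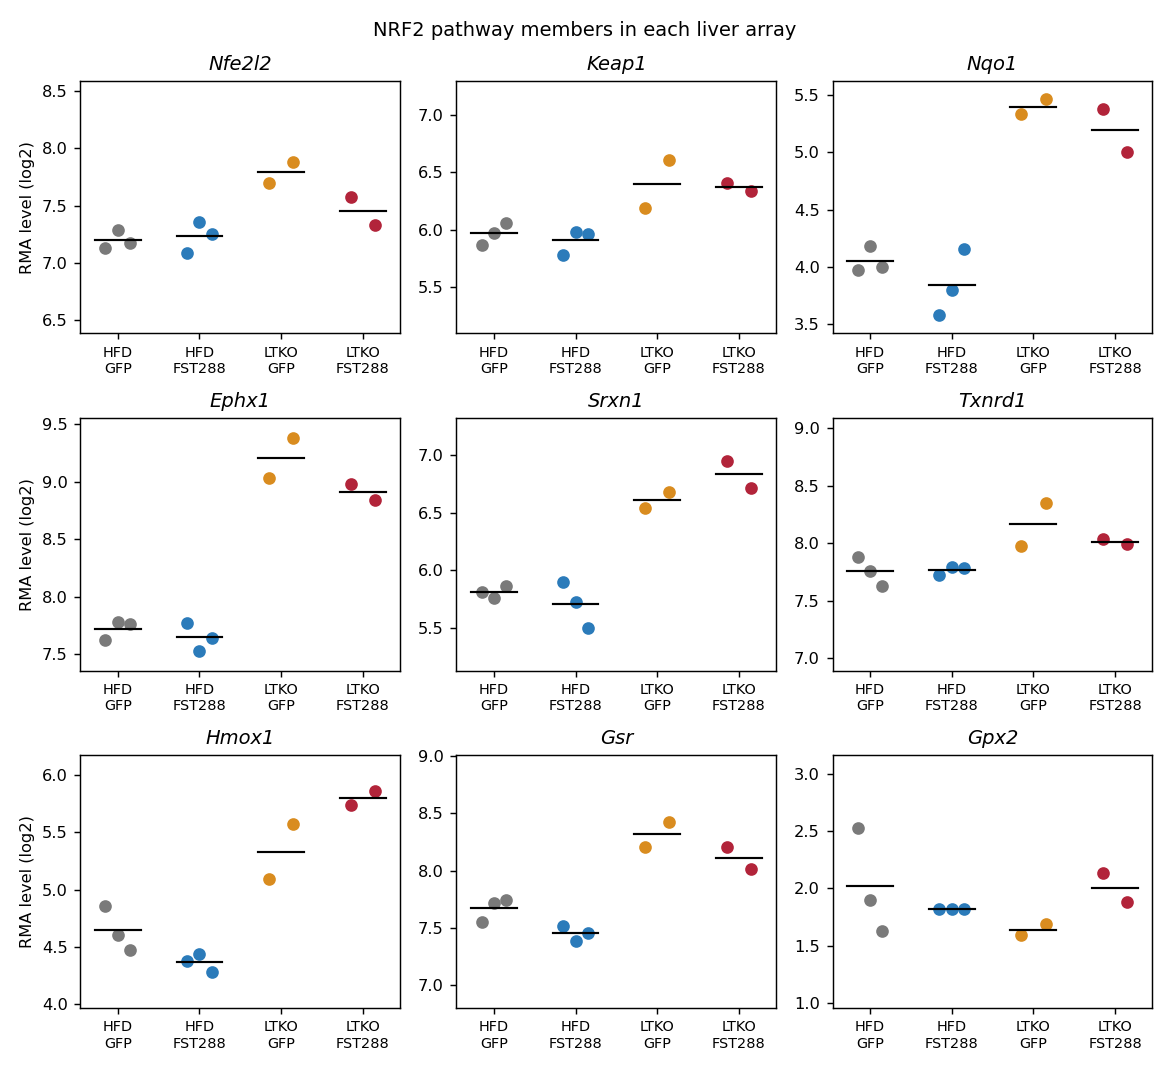
RMA levels on the log2 scale (vertical axes, each spanning the same range or more) of the 9 measured NRF2 genes, with 1 point per array and a line at each group mean; the groups are HFD GFP, HFD FST288, LTKO GFP and LTKO FST288. Points of the LTKO groups lie above every HFD point for Keap1, Nqo1, Ephx1, Srxn1, Txnrd1, Hmox1 and Gsr, while the lowest Nfe2l2 point of LTKO, 7.33, is under the highest of HFD, 7.36.

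Nfe2l2, the gene of NRF2 itself, had levels of 7.13, 7.29 and 7.17 in HFD GFP livers and 7.09, 7.36 and 7.25 in HFD FST288 livers. It was at 7.70 and 7.88 in LTKO GFP livers and at 7.57 and 7.33 in LTKO FST288 livers. The LTKO GFP arrays were the highest of the 10, and the LTKO FST288 arrays overlapped the HFD range. The difference between LTKO and HFD was 0.60 ± 0.11 with GFP (log2, ± standard error of the fit; adjusted p = 0.00317) and 0.22 ± 0.11 with FST288 (adjusted p = 0.317). The test of the difference between these contrasts gave -0.38 ± 0.16 (adjusted p = 0.357), so they were not shown to differ.

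Keap1, which encodes the sensor that marks NRF2 for degradation, was at 5.87, 5.97 and 6.06 in HFD GFP and 5.78, 5.98 and 5.96 in HFD FST288 livers. In LTKO livers it was at 6.19 and 6.61 with GFP and at 6.41 and 6.34 with FST288. The backgrounds did not overlap, and the second LTKO GFP array was the highest. LTKO exceeded HFD by 0.43 ± 0.13 with GFP (adjusted p = 0.0483) and by 0.47 ± 0.13 with FST288 (adjusted p = 0.0392). This call was a narrow one. Without LTKO GFP replicate 2 the difference with GFP was 0.22 (adjusted p = 0.42), and the call with GFP was lost on leaving out any 1 array other than LTKO GFP replicate 1. The call with FST288 was lost without HFD GFP replicate 2 or any 1 of the 5 FST288 arrays (adjusted p 0.0561 to 0.182). Without both acinar-high arrays the value was 0.43 with GFP (adjusted p = 0.0802) and 0.60 with FST288 (adjusted p = 0.13). A second, dim Keap1 cluster, at 2.31 to 3.01, did not show the rise. With the mean of both clusters the averaged difference went from 0.45 (adjusted p = 0.00374) to 0.10 (adjusted p = 0.617).

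Nqo1 encodes a quinone reductase that uses NADPH and is a standard readout of NRF2 activity. Its level was 3.97, 4.18 and 4.0 in HFD GFP livers, 3.58, 3.80 and 4.16 in HFD FST288 livers, 5.33 and 5.46 in LTKO GFP livers, and 5.38 and 5.0 in LTKO FST288 livers. The lowest LTKO array was well above the highest HFD array, and the arrays of the 2 vectors were intermixed within each background. The difference was 1.34 ± 0.18 with GFP (adjusted p = 0.000174) and again 1.34 ± 0.18 with FST288 (adjusted p = 0.000188), a fold of 2.53 in each.

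Ephx1 encodes microsomal epoxide hydrolase, which opens reactive epoxides to diols. It stood at 7.62, 7.78 and 7.76 in HFD GFP livers and at 7.77, 7.53 and 7.64 in HFD FST288 livers. In LTKO GFP livers it was at 9.03 and 9.38, and in LTKO FST288 livers at 8.98 and 8.84. Every LTKO array was more than 1 log2 unit above every HFD array. The difference was 1.48 ± 0.11 with GFP (2.80-fold, adjusted p = 1.64e-06) and 1.26 ± 0.11 with FST288 (2.39-fold, adjusted p = 7.44e-06). Averaged over vectors it was 1.37 ± 0.08, and its adjusted p of 4.96e-08 was the smallest of the 9 members.

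Srxn1 encodes sulfiredoxin, which restores peroxiredoxins that have been over-oxidised. The HFD GFP arrays read 5.81, 5.76 and 5.86, the HFD FST288 arrays 5.90, 5.72 and 5.50, the LTKO GFP arrays 6.54 and 6.68, and the LTKO FST288 arrays 6.95 and 6.72. Both LTKO FST288 arrays were above both LTKO GFP arrays. LTKO exceeded HFD by 0.80 ± 0.13 with GFP (adjusted p = 0.00094) and by 1.13 ± 0.13 with FST288 (adjusted p = 6.07e-05). The contrast between these 2 differences was 0.32 ± 0.18, with an adjusted p of 0.491.

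Txnrd1 encodes the cytosolic thioredoxin reductase. Its levels were 7.88, 7.76 and 7.63 in HFD GFP livers, 7.72, 7.79 and 7.78 in HFD FST288 livers, 7.98 and 8.35 in LTKO GFP livers and 8.04 and 7.99 in LTKO FST288 livers. The backgrounds did not overlap, but the gap between 7.88 and 7.98 was small. The difference was 0.41 ± 0.11 with GFP (adjusted p = 0.0289) and 0.25 ± 0.11 with FST288 (adjusted p = 0.219). Averaged over vectors it was 0.33 ± 0.08 (adjusted p = 0.00991). Without LTKO GFP replicate 2 the difference with GFP was 0.22 (adjusted p = 0.312), and dropping the second or the third HFD GFP array ended the call too (adjusted p = 0.065 and 0.102). Without the acinar-high arrays the difference with GFP stayed at 0.41 (adjusted p = 0.0647), and the averaged difference of 0.35 had an adjusted p of 0.0522.

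Gsr encodes glutathione reductase, which regenerates reduced glutathione with NADPH. It read 7.55, 7.72 and 7.74 in HFD GFP livers, 7.52, 7.39 and 7.46 in HFD FST288 livers, 8.21 and 8.42 in LTKO GFP livers and 8.21 and 8.01 in LTKO FST288 livers. Within each background the FST288 arrays lay at or below the GFP arrays, and the backgrounds were clear of each other. Gsr also had the smallest spread within groups of the 9, an SD of 0.11 where the median gene had 0.16. LTKO exceeded HFD by 0.64 ± 0.10 with GFP (adjusted p = 0.00094) and by 0.66 ± 0.10 with FST288 (adjusted p = 0.000868). Without both acinar-high arrays, which left 1 HFD FST288 array, the latter was 0.59 (adjusted p = 0.0591).

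**Figure D2:**
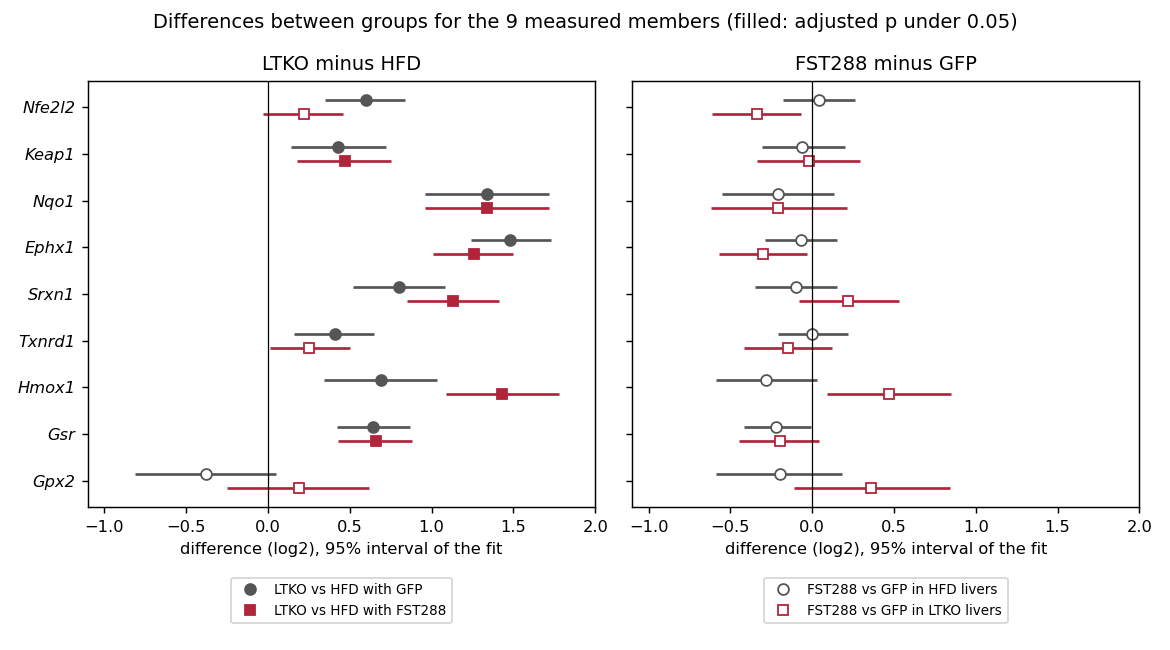
Differences on the log2 scale (horizontal axes) of the 9 measured NRF2 genes with 95% intervals of the fit; on the left LTKO minus HFD with GFP (circles) and with FST288 (squares), on the right FST288 minus GFP in HFD (circles) and LTKO (squares) livers, filled where the adjusted p was under 0.05. Filled points on the left run from 0.41 for Txnrd1 to 1.48 for Ephx1, and no point on the right is filled.

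Hmox1 encodes heme oxygenase 1, which breaks down heme and is induced through NRF2 and by release of the repressor BACH1. Its levels were 4.86, 4.60 and 4.47 in HFD GFP livers and 4.38, 4.44 and 4.28 in HFD FST288 livers. They were 5.09 and 5.57 in LTKO GFP livers and 5.74 and 5.86 in LTKO FST288 livers, the highest of all. So the FST288 arrays were the lowest 3 in HFD livers and the highest 2 overall in LTKO livers. The difference between backgrounds was 0.69 ± 0.16 with GFP (1.61-fold, adjusted p = 0.0111) and 1.43 ± 0.16 with FST288 (2.70-fold, adjusted p = 4.66e-05). The contrast between them was 0.75 ± 0.23, the largest of the 9 members in size, with an unadjusted p of 0.00569 and an adjusted p of 0.208, so it did not pass the test. Without LTKO GFP replicate 2 the difference with GFP was 0.45 (adjusted p = 0.153).

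Macrophages also express Hmox1, and their markers differed between the groups. The summed linear level of 10 Kupffer cell and macrophage markers was 464 to 692 in HFD GFP, 494 to 585 in HFD FST288, 619 to 681 in LTKO GFP and 769 to 1680 in LTKO FST288 livers. In each group all 10 were above the array median. In LTKO against HFD livers, 0 of the 10 were called with GFP, 8 were called higher with FST288 and 5 were called higher averaged. The shares of all genes called higher were 6.69% with GFP, 5.05% with FST288 and 8.88% averaged. The high value came from LTKO FST288 replicate 2, where the marker median was 7.30, against 5.87 on replicate 1. Without that array 1 of the 10 was called higher with FST288 and 2 averaged, and the Hmox1 difference with FST288 was 1.38 (adjusted p = 0.00104). Without both acinar-high arrays 0 of the 10 were called with FST288 and 1 averaged. Single markers also differed in level with GFP, 6 being higher and 4 lower in LTKO than in HFD livers. Cd5l had a mean of 7.24 in LTKO GFP and 6.57 in HFD GFP livers, while Adgre1 had 4.48 and 5.25. The part of macrophage content in the Hmox1 values was not tested.

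**Figure D3:**
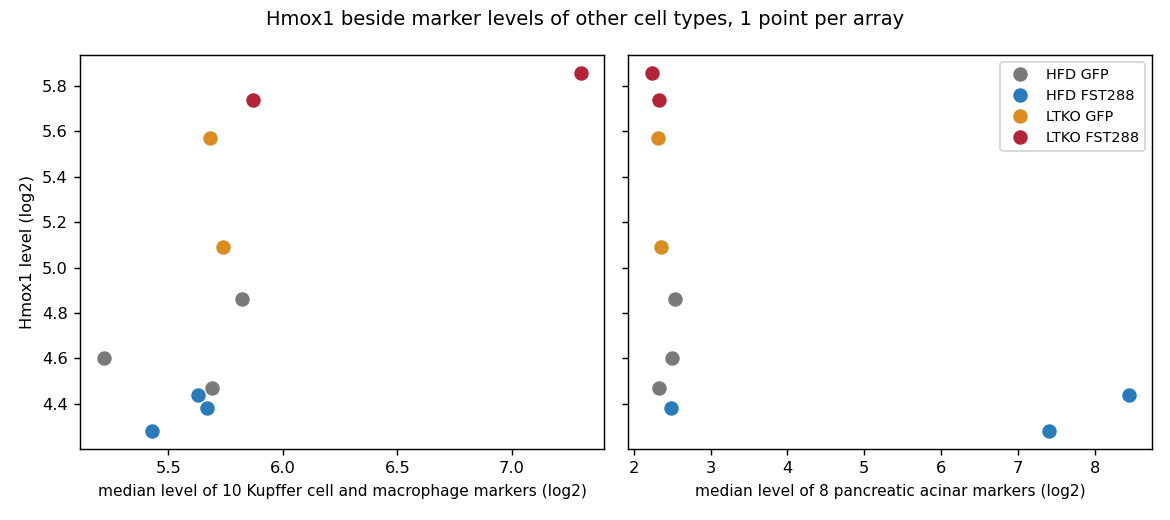
Hmox1 level (log2, vertical axis) against the median log2 level of 10 Kupffer cell and macrophage markers (left) and of 8 pancreatic acinar markers (right), 1 point per array, coloured by group. LTKO FST288 replicate 2 stands alone at a Kupffer marker median of 7.30 with Hmox1 at 5.86, while replicate 1 has Hmox1 at 5.74 with a marker median of 5.87; the acinar-high HFD FST288 arrays, at 8.44 and 7.40, lie among the lowest for Hmox1.

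Gpx2, a glutathione peroxidase best known from gut epithelium, was the exception. Its levels were 2.53, 1.90 and 1.63 in HFD GFP livers, 1.82 on each HFD FST288 array, 1.59 and 1.69 in LTKO GFP livers and 2.13 and 1.88 in LTKO FST288 livers. All 10 values were under the medians of the named genes, 3.10 to 3.17, which places it among the dimmer genes. LTKO minus HFD was -0.38 ± 0.20 with GFP (adjusted p = 0.268) and 0.19 ± 0.20 with FST288 (adjusted p = 0.696). Its SD within groups, 0.28, was the largest of the 9.

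FST288 changed no member past the test in either background. In HFD livers 0 of 9 members were called, against 0.996% of all genes. An unadjusted p under 0.05 was found for 1 member and for 2672 of all 22180 genes. That member was Gsr, with a difference of -0.22 ± 0.09 (FST288 minus GFP, adjusted p = 0.369). In LTKO livers 0 of 9 were called, against 0.167% of all genes. Here 3 members had an unadjusted p under 0.05, as did 2213 of all 22180 genes. The 3 were Nfe2l2 at -0.34 ± 0.12 (adjusted p = 0.378), Ephx1 at -0.30 ± 0.13 (adjusted p = 0.451) and Hmox1 at 0.47 ± 0.18 (adjusted p = 0.392). Of the members only Hmox1 and Nfe2l2 had an unadjusted p under 0.05 for the difference between the backgrounds in the FST288 effect, where 0 of 9 members and 0.216% of all genes were called. Over all 22180 genes, 2795 had an unadjusted p under 0.05 for that difference. The 95% intervals, which are not adjusted over genes, show what these arrays could bound. In HFD livers the interval of Gsr excluded 0 (-0.42 to -0.01). In LTKO livers those of Nfe2l2 (-0.61 to -0.07), Ephx1 (-0.57 to -0.03) and Hmox1 (0.09 to 0.85) did. The intervals of the other members included 0. For Nqo1 the FST288 effect lay between -0.55 and 0.13 in HFD and between -0.62 and 0.21 in LTKO livers, and for Txnrd1 between -0.21 and 0.22 and between -0.42 and 0.12.

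A further 53 measured genes of the pathway, of 63 listed by role with earlier results known, were read in the same fit. In LTKO against HFD livers averaged over vectors, 20 of the 53 were called higher and 8 lower, where 8.88% of all genes were called higher and 8.44% lower. The counts were 20 and 6 with GFP, and 14 and 8 with FST288. The median difference of the 53 was 0.11 averaged, against 0.01 over all genes, with 37 of them above 0 and 16 below. For 17 of them all LTKO arrays were above all HFD arrays, and for 7 they were all below, as for 6.82% and 6.45% of all genes. Leaving out both acinar-high arrays gave 17 higher and 7 lower averaged, 17 and 3 with GFP and 9 and 3 with FST288, and leaving out LTKO FST288 replicate 2 gave 19 and 9 averaged, 21 and 6 with GFP and 10 and 5 with FST288.

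**Figure D4:**
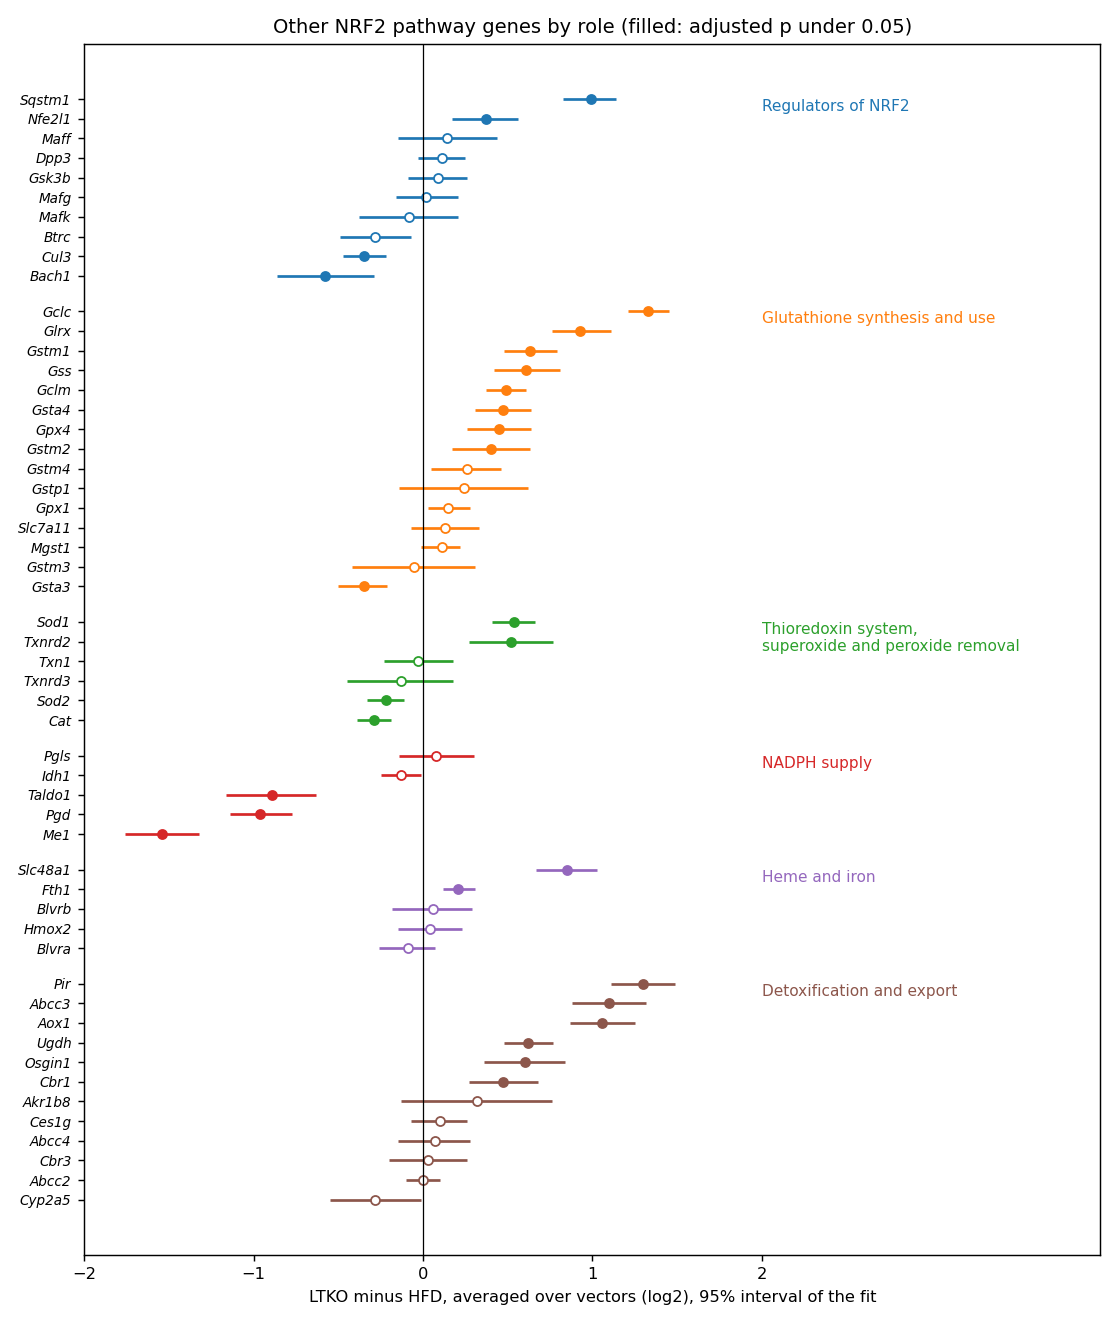
LTKO minus HFD differences averaged over vectors (log2, horizontal axis) with 95% intervals of the fit for 53 other NRF2 pathway genes, grouped and coloured by role and filled where the adjusted p was under 0.05. Filled points reach 1.33 for Gclc at the high end and -1.54 for Me1 at the low end, and the 3 filled NADPH supply genes all lie below 0.

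Among 10 measured regulators of NRF2, 2 were called higher and 2 lower. Sqstm1, which encodes the autophagy receptor p62 that binds KEAP1 and is itself an NRF2 target, was higher by 0.99 ± 0.07 (adjusted p = 3.61e-07), with HFD arrays from 8.17 to 8.56 and LTKO arrays from 9.07 to 9.59. Nfe2l1, a relative of NRF2, was higher by 0.37 (adjusted p = 0.0123), which was lost without LTKO GFP replicate 2 (0.26, adjusted p = 0.0601), LTKO FST288 replicate 2 (0.32, adjusted p = 0.0581) or both acinar-high arrays (0.34, adjusted p = 0.0991). Cul3, the scaffold of the ligase that ubiquitinates NRF2, was lower by 0.35 (log2 difference -0.35, adjusted p = 0.000727). Bach1, the repressor that competes at antioxidant response elements, differed by -0.58 ± 0.13 averaged (adjusted p = 0.00664). Bach1 was not called with GFP (-0.27, adjusted p = 0.413) and was called with FST288 (-0.88, adjusted p = 0.00675), and the contrast between the 2, -0.61, had an adjusted p of 0.364. Without LTKO FST288 replicate 2 the value with FST288 was -0.63 (adjusted p = 0.107). The small MAF partners Mafg, Maff and Mafk had differences of 0.02, 0.14 and -0.08, none called.

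Genes of glutathione synthesis and use held 8 higher and 1 lower of 15. Gclc, the catalytic subunit of the enzyme that limits glutathione synthesis, had the largest rise of all 53. It was at 8.86, 9.0 and 8.95 in HFD GFP, 8.57, 8.57 and 8.69 in HFD FST288, 10.45 and 10.45 in LTKO GFP, and 9.80 and 9.71 in LTKO FST288 livers. The 4 groups did not overlap at all. The averaged difference was 1.33 ± 0.06 (adjusted p = 1.62e-09). Its partner Gclm, the modifier subunit, was higher by 0.49 ± 0.06 (adjusted p = 2.29e-05), and Gss, which completes glutathione, by 0.61 ± 0.09 (adjusted p = 0.000246). The others called higher were Glrx (0.93), Gstm1 (0.63), Gsta4 (0.47), Gpx4 (0.45) and Gstm2 (0.40), of which Gstm2 was lost without LTKO GFP replicate 2 (0.31, adjusted p = 0.0925), LTKO FST288 replicate 2 (0.37, adjusted p = 0.0628) or both acinar-high arrays (0.27, adjusted p = 0.198). Gpx1, a glutathione peroxidase, was called with GFP alone (0.28, adjusted p = 0.038) and lost that call without 5 of the 10 arrays, dropping to 0.17 (adjusted p = 0.322) without LTKO GFP replicate 1. Gsta3, a glutathione transferase, was the 1 called lower, at -0.35 (adjusted p = 0.00209). Glutathione transferases of a class are close in sequence, and the array probes may not separate them fully.

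In the thioredoxin and peroxide group, 2 of 6 were called higher and 2 lower. Sod1, the cytosolic superoxide dismutase, was higher by 0.54 ± 0.06 (adjusted p = 1.81e-05), and Txnrd2, the mitochondrial thioredoxin reductase, by 0.52 ± 0.11 (adjusted p = 0.00512). Cat, the peroxisomal catalase, was lower at -0.29 (adjusted p = 0.0006), and Sod2, the mitochondrial dismutase, at -0.22 (adjusted p = 0.00663). Without the acinar-high arrays Txnrd2 was at 0.43 (adjusted p = 0.068) and Sod2 at -0.19 (adjusted p = 0.0983).

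Of 5 measured genes of NADPH supply, 0 were called higher and 3 lower, with each vector and averaged. With FST288 the count was 2 lower without both acinar-high arrays, where Taldo1 was at -0.90 (adjusted p = 0.092), and Taldo1 also lost that call without LTKO FST288 replicate 1 (-0.65, adjusted p = 0.0989). Me1, malic enzyme 1, lay between 9.87 and 10.16 on the HFD arrays and between 8.0 and 8.79 on the LTKO arrays, a difference of -1.54 ± 0.10 (2.91-fold, adjusted p = 1.29e-07). Pgd, the 6-phosphogluconate dehydrogenase of the pentose phosphate pathway, differed by -0.96 ± 0.08 (adjusted p = 2.44e-06), and Taldo1, transaldolase of the same pathway, by -0.89 ± 0.12 (adjusted p = 0.000154). All 3 are known from other work as NRF2 targets, and malic enzyme also feeds lipid synthesis. Idh1 and Pgls, at -0.13 and 0.08, were not called.

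Of 5 heme and iron genes 2 were called higher. Slc48a1, a heme transporter, was higher by 0.85 ± 0.08 (adjusted p = 6.82e-06), with the same 0.85 under each vector, and Fth1, the ferritin heavy chain, by 0.21 ± 0.04 (adjusted p = 0.00336). Blvra and Blvrb, the biliverdin reductases downstream of Hmox1, had differences of -0.09 and 0.06 and were not called.

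Detoxification and export genes held 6 higher and 0 lower of 12. Pir, a gene named for the iron-binding protein pirin, was at 3.97 to 4.52 on HFD arrays and 5.39 to 5.80 on LTKO arrays, a difference of 1.30 ± 0.09 (adjusted p = 1.61e-07). Abcc3, an exporter of conjugates from the basolateral side of the hepatocyte, was higher by 1.10 ± 0.10 (adjusted p = 3.68e-06), and Aox1, aldehyde oxidase, by 1.06 ± 0.09 (adjusted p = 1.62e-06). Ugdh, Osgin1 and Cbr1 were higher by 0.62, 0.60 and 0.47. Abcc2 and Abcc4, exporters of the canalicular and basolateral side, were at 0.00 and 0.07 and were not called. Cyp2a5, a cytochrome P450, was called lower with GFP alone (-0.60, adjusted p = 0.039), a call lost on leaving out HFD GFP replicate 2 (-0.45, adjusted p = 0.127) among other arrays, and it differed by 0.03 with FST288. The contrast between these 2 had an adjusted p of 0.321.

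Few pathway genes were called for FST288 against GFP, on the same arrays as above, and those called were lower. In HFD livers 4 of 53 were called lower and 0 higher, where 0.419% of all genes were called lower. Abcc3 fell from 6.87, 7.05 and 7.0 with GFP to 6.25, 5.79 and 5.98 with FST288, a difference of -0.96 ± 0.13 (1.95-fold, adjusted p = 0.00254). Aox1 fell from 6.56, 6.68 and 6.42 to 5.79, 5.85 and 5.91, at -0.70 ± 0.11 (adjusted p = 0.00917). Groups did not overlap for either gene. Gclm, at -0.36 ± 0.07 (adjusted p = 0.0237), and Gclc, at -0.33 ± 0.07 (adjusted p = 0.0438), also fell. Of 8 pericentral hepatocyte markers 3 were called lower in the same comparison, and their part in these values was not tested. The HFD FST288 group holds both acinar-high arrays. Without them 1 array was left and 0 of the 4 were called, with values of -0.72 for Abcc3, -0.76 for Aox1, -0.35 for Gclm and -0.37 for Gclc. The largest difference upward among the 53 was that of Gstm3, a glutathione transferase named after its values were seen, at 5.06, 5.55 and 5.49 with GFP and 6.36, 6.33 and 5.97 with FST288. Its difference of 0.86 ± 0.22 was not called (adjusted p = 0.0927). It passed without LTKO FST288 replicate 2, but that array is outside this comparison and the difference stayed at 0.86. The fit pools the spread of all groups. The SD of Gstm3 was 0.72 in LTKO FST288, 0.27 in HFD GFP and 0.22 in HFD FST288 livers. Leaving out single arrays gave 1 to 4 called lower and 0 to 1 higher. Abcc3 was called in 10 of 10 such fits. Aox1 was called in 8, all but those without HFD GFP replicate 2 (adjusted p = 0.0511) or HFD FST288 replicate 2 (adjusted p = 0.0514). Gclm and Gclc were called in 4 each and were lost without any 1 of the 6 HFD arrays. In the other lists the smallest p belonged to Bach1 (0.48, adjusted p = 0.228), Sod1 (0.16, adjusted p = 0.421), Pgd (0.17, adjusted p = 0.577) and Blvrb (-0.54, adjusted p = 0.0902), none of them called.

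In LTKO livers the 1 pathway gene called with FST288 was Gclc, which fell by 0.70 ± 0.09 on the log2 scale (1.62-fold, adjusted p = 0.00534) and was called in 10 of 10 fits that left out an array, at -0.74 to -0.65. Of all 22180 genes, 15 were called lower and 22 higher in this comparison. The Gclc call was lost in a fit of the LTKO groups alone (-0.70, adjusted p = 0.234) and without the intensity trend (adjusted p = 0.078). Gclc was called lower with FST288 in both backgrounds, and the contrast between them was -0.37 ± 0.11 (adjusted p = 0.201). Gclm had the same value of -0.36 in LTKO as in HFD livers but was not called there (adjusted p = 0.159). Abcc3 was at -0.05 in LTKO livers, and its contrast of 0.91 ± 0.20 had an adjusted p of 0.0961. That contrast passed the test without HFD FST288 replicate 1 (1.03, adjusted p = 0.0415), which left only both acinar-high arrays in that group. It was 1.11 without LTKO FST288 replicate 1, which left only the array with high macrophage markers in that group. Without LTKO FST288 replicate 2, the array with those high markers, it was 0.72. The gene of smallest p in the other lists was Sqstm1 (-0.39, adjusted p = 0.253), Cat (-0.20, adjusted p = 0.373), Pgd (0.40, adjusted p = 0.32), Fth1 (-0.16, adjusted p = 0.456) and Ugdh (-0.36, adjusted p = 0.253), none of them called.

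**Figure D5:**
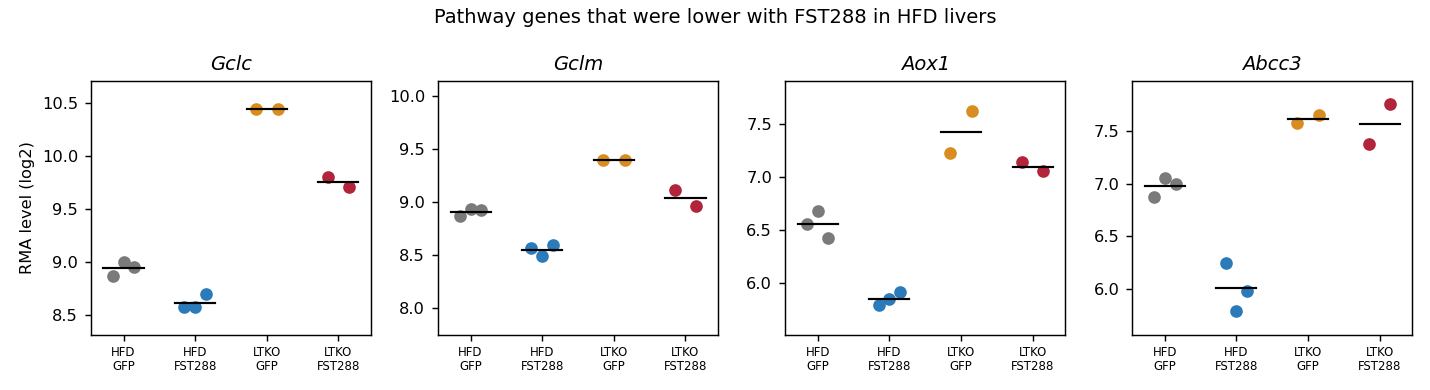
RMA levels on the log2 scale (vertical axes) of the 4 pathway genes called lower with FST288 in HFD livers, with 1 point per array and a line at each group mean. Gclc falls from 10.45 to 9.80 and 9.71 in LTKO livers as well, while Abcc3, at 7.57 and 7.65 with GFP, is at 7.37 and 7.75 with FST288 there.

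Markers of hepatocyte position also differed between the groups. The summed linear level of 8 pericentral markers was 8940 to 9480 in HFD GFP, 8110 to 8380 in HFD FST288 and 10800 to 11000 in both LTKO groups. That sum weighs the brightest markers most. The median log2 level of the same 8 was 8.66 to 8.74 in HFD GFP and 8.23 to 8.31 in HFD FST288 livers. It was 8.65 to 8.70 in LTKO GFP and 8.46 to 8.73 in LTKO FST288 livers, so with GFP the median did not rise. In LTKO against HFD livers averaged over vectors 5 of the 8 were called higher and 2 lower. Of all genes, 8.88% were called higher and 8.44% lower in that comparison. With FST288 in HFD livers, where the 4 pathway genes fell, 3 of the 8 were called lower and 0 higher. Of all genes, 0.419% were called lower there. The 3 markers were Oat (-0.75, adjusted p = 0.000278), Lect2 (-0.71, adjusted p = 0.00278) and Glul (-0.38, adjusted p = 0.00771). Hepatocyte markers summed to between 34100 and 37300 on every array, with 0 of 6 called higher and 1 lower. The part of these differences in the NRF2 gene values was not tested.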

How the data were processed

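The data are 10 whole-liver RNA samples from mice, with 1 array per sample. The deposited log2 values were made by the authors with RMA in Affymetrix Expression Console, per the submitters' processing notes. RMA corrects background, gives all arrays 1 distribution and summarises probes. The version is not given in the sources used here, and the log base is read from RMA and the range of values, 0.64 to 13.21. Array medians were 2.71 to 2.75. Arrays hold no counts, so their number limits the precision.

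Of 41345 transcript clusters, 23521 were listed with 1 symbol, 1814 with several and 16010 not at all. The last 2 kinds were left out. The brightest cluster stood for each of 22180 genes, and dim genes were kept. All arrays entered 1 linear model of the 4 group means (limma 3.58.1, R 4.3.3, eBayes with an intensity trend, 6 residual and 7.155 prior degrees of freedom), with 6 two-sided comparisons. The p-values were adjusted by Benjamini-Hochberg over all genes within each, and genes were called under 0.05. Intervals are 95%. The procedure was tested on simulated data.

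Members and lists were chosen with earlier results of these data known. Named were all members, every pathway gene called in a comparison, each list's gene of smallest p, and Fst, Irs1, Irs2 and Foxo1. Other pathway genes named, Mafg, Maff, Mafk, Idh1, Pgls, Abcc2, Abcc4 and Gstm3 among them, were chosen after their values were seen. Alternatives left out arrays or changed covariates, moderation, normalization, filters, cluster choice or threshold. The labels name no batch. Replicate numbers showed no sign of pairing the samples: of 13 same-number pairs, 0 correlated above 0.1 in their deviations from group means (-0.07 to 0.06). In LTKO groups the deviations of the 2 arrays mirror each other, so these pairs are not independent. The check cannot exclude a shared litter, day or batch.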

Additional observations from a re-analysis of the deposited data

How the results depend on the processing

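Limits come first from the number of arrays: LTKO groups hold 2 each, and genotype cannot be told apart from diet. Over the alternatives, 5 members were called higher in LTKO than HFD livers with GFP in every one of 24 (Nfe2l2, Nqo1, Ephx1, Srxn1 and Gsr), 4 with FST288 in every one of 24 (Nqo1, Ephx1, Srxn1 and Hmox1) and 6 in every one of 23 averaged over vectors (Nfe2l2, Nqo1, Ephx1, Srxn1, Hmox1 and Gsr). The count with GFP, 8, was 5 at an adjusted p under 0.01 and 5 to 8 when single arrays were left out; with FST288, 6, it was 5 to 6 without single arrays and 4 without both acinar-high arrays; averaged, 8, it stayed at 8 without single arrays and was 7 without both acinar-high arrays. No called value of a member or named pathway gene changed sign. With the replicate block the counts were 7, 6 and 8, and 0 for the FST288 effects, where every alternative gave 0. The call lost with GFP under the block was Txnrd1 (0.38, adjusted p = 0.0773). Among the other pathway genes the block gave 19 higher and 8 lower averaged, and 2 lower for FST288 in HFD livers in place of 4.

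Counts over all genes moved more, and the cause was not tested beyond the samples each fit held. FST288 in HFD livers called 221 genes, 80 to 307 without single arrays, 6 without both acinar-high arrays and 411 in a fit of the compared groups alone. FST288 in LTKO livers called 37, 21 to 237 without single arrays and 0 in a fit of the compared groups alone. The difference between these effects called 48, 11 to 266 without single arrays and 1 without both acinar-high arrays. LTKO against HFD called 2902 with GFP and 1870 to 3037 without single arrays, and 2293 with FST288, down to 939 without both acinar-high arrays and 1533 without a single array.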
